A study of Homo sapiens with 36 samples.

Results

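The early response of A549 cells to IL-1β was measured in 6 of the 36 RNA-seq libraries of the study, namely all those collected at day 6 of exposure. They were chosen by their labels alone. The libraries labelled A549_IL1b_6d came from cells grown for 6 days in RPMI medium with fetal bovine serum and IL-1β at 1 ng/ml. The libraries labelled A549_Ctrl_6d came from cells kept as long in the same medium with no cytokine. Each group had 3 replicates, which the labels call biological without saying that they were separate cultures. The p-values of genes therefore set differences against the spread between such replicates, estimated over all 36 libraries, and not against a known spread between cultures. A549 is an established human lung adenocarcinoma line, so both groups describe a single tumour cell line in monoculture that was split every few days. The other 30 libraries, from later exposure and from cells after withdrawal, entered the model to estimate the spread, and those of days 15 and 21 were also compared with day 6.

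IL-1β binds the receptor IL1R1, which pairs with the accessory chain IL1RAP and recruits MYD88 and the IRAK kinases. Through TRAF6 and the kinase TAK1, this activates the IKK complex, which frees NF-κB from its IκB inhibitors, and the MAP kinases, which act on AP-1. In airway epithelium the pathway is known for chemokines that attract neutrophils, for acute phase proteins and for inhibitors that NF-κB induces against itself. In lung cancer cells the same cytokine has been studied as an inducer of epithelial-mesenchymal transition (EMT), the loss of epithelial features with a gain of mesenchymal ones.

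Counts on genes ran from 13092024 to 19607871 over the 6 libraries. Control replicate 2 stood apart from the other day 6 libraries. Mitochondrial genes took 20.03% of its counts, against 6.61% to 7.56% in the other 5. Their share was 11.7 ± 7.20% in the controls and 6.88 ± 0.237% with IL-1β (SD, n = 3 each), and the difference of -4.84 percentage points gave an exact two-sided permutation p of 0.1, the smallest p that 3 against 3 can give. Without replicate 2 of each group the shares were 7.56 ± 0.00479% and 6.78 ± 0.243% (SD, n = 2 each), a difference of -0.776 points. None of the 33 mitochondrial genes tested passed the thresholds given below in edgeR's test, with or without control replicate 2, or in DESeq2's, and 1 had an unadjusted p under 0.05 in edgeR's test. Named genes that no longer passed without control replicate 2 are marked as such, most of them with the adjusted p of that fit.

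**Figure D1:**
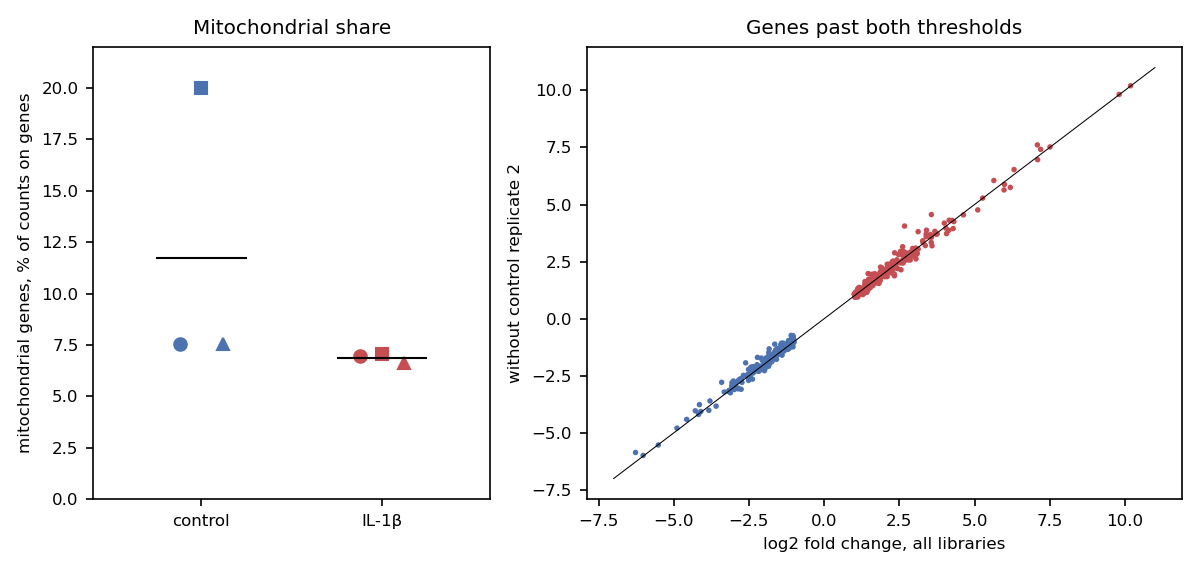
Left, the share of counts on genes that fell on mitochondrial genes (%) in each day 6 library, with circles, squares and triangles for replicates 1, 2 and 3 and a line at the group mean; control replicate 2 is at 20.03% and the others lie between 6.61% and 7.56%. Right, the log2 fold change of the 531 genes past both thresholds, from all libraries (x axis) and without control replicate 2 (y axis), with red for higher and blue for lower genes and a line of equal values; all 531 kept their sign.

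At day 6, 531 of the 19180 genes tested (2.77%) were differentially expressed, 291 higher (1.52%) and 240 lower (1.25%) with IL-1β. These shares over all genes are the background for the counts of calls in the gene lists below. A gene was counted when its Benjamini-Hochberg adjusted p in edgeR's quasi-likelihood test, called edgeR adjusted p here, was under 0.05 and its fold change over 2, referred to as both thresholds. Scaling by total counts alone gave 312 higher and 160 lower genes, so that 66.1% of the calls were higher rather than 54.8%. Without control replicate 2, 417 of 19639 genes (2.12%) passed, and without the 11 libraries of the study with over 10% mitochondrial counts, 693 of 20248 (3.42%). Of the 531 genes, 393 were called again without control replicate 2, and all 531 kept their sign. Leaving out replicate 1 of every group lowered the number most, to 176.

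Some calls named in the text were lost when a single library was left out, in fits that also had fewer samples. Each of the 6 day 6 libraries was left out in turn, and the number of these 6 fits in which a call was lost is given for each such gene. ZEB2 and KRT83 were lost in all 6. CCL28, CD274, DSP, F7, ICAM1, SOX21 and TNIP3 were lost in 5, and COL1A1, IL1B, PDCD1LG2, PDK4 and PTGES in 4. CDH1, FOXA1, KRT15, PTX3 and ENSG00000250376 were lost in 3, and FOSL1, KRT86, NFKBIE and PLAT in 2. AKR1C2 (IL-1β replicate 3), CFB and ITGA2 (control replicate 3), F3 (control replicate 1), and PTGS2 and RELB (control replicate 2) were lost in 1. None of them changed sign in these fits.

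Changes of large size were more often increases. The log2 fold change was above 3 in 46 of the higher genes and below -3 in 23 of the lower ones, and above 4 in 21 and below -4 in 9. In 526 of the 531 genes the 3 libraries of each group did not overlap in CPM (counts divided by the library size in units of 10 to the power 6, scaled by edgeR's TMM factors), against 4176 of all genes tested (21.8%). Protein-coding genes made up 451 of the 531, with 267 higher and 184 lower. The median standard error of the log2 fold change was 0.35 among the 531 genes.

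**Figure D2:**
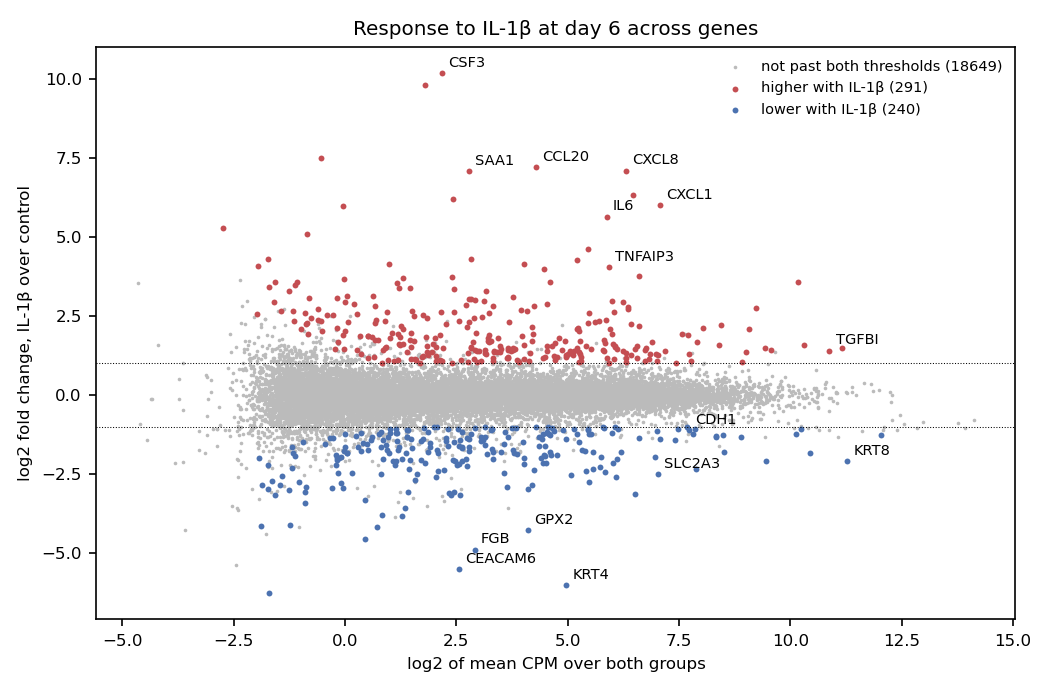
Each point is 1 of the 19180 genes tested, with the log2 of its mean CPM over the 6 day 6 libraries on the x axis and its log2 fold change, IL-1β over control, on the y axis. Red points are the 291 genes higher and blue points the 240 genes lower past both thresholds, grey points are the others, and dotted lines mark a fold change of 2.

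Chemokines, the secreted proteins that draw leukocytes into tissue, led the increases. Of 22 chemokine genes listed, 13 were tested, 7 rose and 1 fell (61.5% called, against 2.77% of all genes). The median log2 fold change was 3.56, against -0.02 over all genes tested. All 5 tested chemokines of the CXC group that attracts neutrophils rose. CXCL8, which encodes interleukin 8, had 1.37, 0.870 and 1.12 CPM in control replicates 1, 2 and 3 and 149, 181 and 139.9 CPM with IL-1β. The groups were far apart, and the log2 fold change was 7.10 (SE 0.45, edgeR adjusted p = 1.10e-11). CXCL1 had 4.18, 3.39 and 4.79 CPM in the controls and 284, 283 and 227 CPM with IL-1β, a log2 fold change of 6.00 (SE 0.32, edgeR adjusted p = 5.41e-13). Its close relatives CXCL3 and CXCL2 rose by 4.63 and 4.26 on the log2 scale (SE 0.33 and 0.25). These 3 genes are similar in sequence, so reads could have been assigned to the wrong copy. CXCL5, named after its value was seen, was already at 159, 121 and 262 CPM in the controls and reached 1762, 1954 and 2682 CPM, a log2 fold change of 3.56 (SE 0.25).

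Among the CC chemokines, CCL20, which attracts cells that carry the receptor CCR6, had 0.262, 0.348 and 0.177 CPM in the controls and 43.9, 40.0 and 31.6 CPM with IL-1β. It was close to undetected in every control library, and its log2 fold change was 7.20 (SE 0.49, edgeR adjusted p = 4.32e-11). CCL2, a monocyte chemokine, had 1.63, 3.31 and 2.90 CPM in the controls and 38.4, 40.2 and 46.0 CPM with IL-1β, a log2 fold change of 4.00 (SE 0.42). The gene that fell was CCL28, a mucosal chemokine named after its value was seen, from 0.588, 0.435 and 0.473 CPM to 0.207, 0 and 0.0974 CPM. Its call was lost without control replicate 2, where the log2 fold change was -2.28 (edgeR adjusted p = 0.0764).

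The promoters of these genes are shown because most hold a match to the κB motif, to which NF-κB binds. The windows are from RefSeq (GRCh38.p14), from 250 bases before to 50 after the gene's start, 5′ to 3′ on the gene's strand, and capitals mark GGNNNTTCC on either strand. The 4 printed are the members of the chemokine and NF-κB lists with a match and the largest increases. They lie at chr2:227813592-227813891 (plus strand), chr4:73740319-73740618 (plus), chr4:73869143-73869442 (plus) and chr4:74038640-74038939 (minus).
CCL20: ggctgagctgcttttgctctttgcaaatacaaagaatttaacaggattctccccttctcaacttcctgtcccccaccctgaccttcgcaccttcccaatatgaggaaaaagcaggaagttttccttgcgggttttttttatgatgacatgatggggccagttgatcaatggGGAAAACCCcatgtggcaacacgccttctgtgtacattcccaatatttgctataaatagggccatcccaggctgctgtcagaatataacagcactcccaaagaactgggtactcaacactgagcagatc
CXCL8: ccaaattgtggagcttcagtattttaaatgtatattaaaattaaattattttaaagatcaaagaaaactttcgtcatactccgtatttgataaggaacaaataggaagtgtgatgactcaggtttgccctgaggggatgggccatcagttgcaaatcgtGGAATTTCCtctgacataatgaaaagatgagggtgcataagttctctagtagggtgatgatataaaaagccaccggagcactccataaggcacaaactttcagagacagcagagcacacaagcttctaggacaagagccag
CXCL1: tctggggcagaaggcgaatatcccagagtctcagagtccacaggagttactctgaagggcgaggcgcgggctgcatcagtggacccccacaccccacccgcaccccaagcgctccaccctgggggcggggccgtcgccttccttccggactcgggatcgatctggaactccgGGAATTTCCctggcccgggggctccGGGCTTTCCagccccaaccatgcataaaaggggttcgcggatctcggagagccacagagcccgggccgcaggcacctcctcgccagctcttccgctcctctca
CXCL3: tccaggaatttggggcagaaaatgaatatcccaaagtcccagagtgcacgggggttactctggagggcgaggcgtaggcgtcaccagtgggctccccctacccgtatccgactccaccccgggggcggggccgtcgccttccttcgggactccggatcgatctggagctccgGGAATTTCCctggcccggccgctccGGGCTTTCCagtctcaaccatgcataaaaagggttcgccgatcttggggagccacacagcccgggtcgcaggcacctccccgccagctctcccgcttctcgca
CXCL1 and CXCL3 hold 2 matches each at the same places, with first bases 78 and 53 bases before the start, and CCL20 and CXCL8 hold 1 each. Of the 18 members of the 2 lists that rose, 15 had a window in the RefSeq table and 14 of these (93.3%) held the motif, against 3278 of 11641 windows of tested genes (28.2%) and 6406 of 27305 windows in all (23.5%). Over the whole comparison, 77 of 201 windows of higher genes (38.3%) and 34 of 149 windows of lower genes (22.8%) held it. The AP-1 motif TGANTCA, searched on either strand, was in 47 of the 201 windows of higher genes (23.4%) and 15 of the 149 of lower genes (10.1%), against 871 of 11641 (7.48%). A match describes the letters only, and the members were chosen with these genes known.

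**Figure D3:**
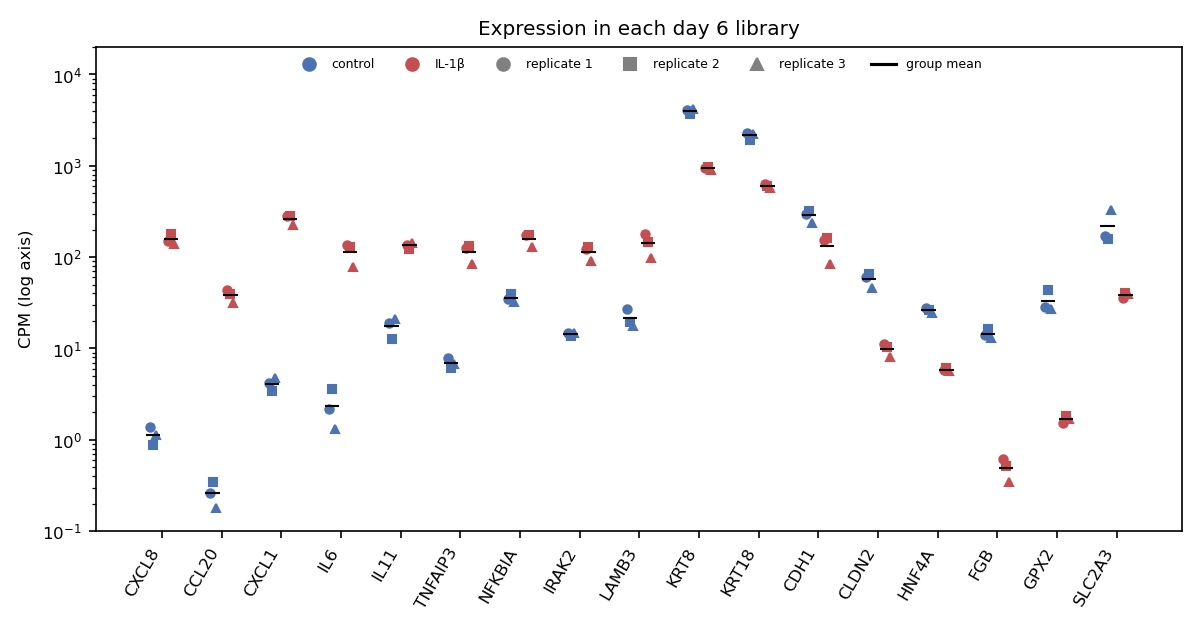
CPM on a log axis of 17 genes in the 6 day 6 libraries, blue for control and red for IL-1β, with circles, squares and triangles for replicates 1, 2 and 3 and a black line at the group mean. In all 17 genes the 3 IL-1β libraries lie wholly above (CXCL8 to LAMB3) or wholly below (KRT8 to SLC2A3) the 3 controls.

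Of 44 cytokines and growth factors listed, 36 were tested, 12 rose and none fell in edgeR's or DESeq2's test (33.3% called), with 1 lower at an unadjusted p under 0.05 in edgeR's. The median log2 fold change was 0.74, and 10 rose without control replicate 2. All 3 colony stimulating factors tested rose. CSF3, which drives the production of neutrophils, was not counted in any control library and had 11.04, 9.50 and 6.62 CPM with IL-1β, at least 42.8-fold above the level of 3 counts per library. CSF2, which drives granulocytes and macrophages, was likewise at 0 in the controls and had 1.104, 1.096 and 1.95 CPM, at least 6.54-fold higher. Such bounds cover counting error only. CSF1, named after its value was seen, rose from 109, 107 and 47.7 CPM to 409, 399.6 and 178 CPM, and replicate 3 was the lowest library in both groups.

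Of the IL-6 family, 2 of 4 tested members rose. IL6, a driver of the acute phase response, went from 2.16, 3.57 and 1.30 CPM to 136, 129 and 78.8 CPM, a log2 fold change of 5.64 (SE 0.60, edgeR adjusted p = 2.28e-07). IL11 went from 19.2, 12.6 and 21.1 CPM to 135, 124 and 144 CPM, a log2 fold change of 2.93 (SE 0.45). IL1B, the gene of the cytokine added to the medium, stayed near the limit of detection, with 0.327, 0 and 0 CPM in the controls and 1.52, 1.02 and 0.536 CPM with IL-1β. Its log2 fold change of 3.05 (edgeR adjusted p = 0.0321) was 2.62 without control replicate 2 (edgeR adjusted p = 0.145), where its call was lost. The related IL1A had a log2 fold change of 2.21 and did not pass (edgeR adjusted p = 0.0970). LTB, a membrane-bound ligand of the TNF family, had 1 count in the controls together, and its ratio of IL-1β over control was 43.1 (exact 95% interval 7.37 to 1737, counting error only). None of the 6 tested TGF-β family ligands passed in edgeR's or DESeq2's test, near the 2.77% of all genes called. Of the 6, 1 had an unadjusted p under 0.05 in edgeR's test, and their log2 fold changes ran from -0.76 to 0.42.

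The receptor and the proteins next to it gave a single call. Of 23 such genes listed, 19 were tested and 1 rose (5.26%, against 1.52% of all genes higher), with a median log2 fold change of -0.03. That gene was IRAK2, a kinase-like protein of the receptor complex, with 14.9, 13.7 and 14.7 CPM in the controls and 123, 128 and 91.3 CPM with IL-1β. The log2 fold change was 2.98 (SE 0.25, edgeR adjusted p = 4.90e-09). The receptor chains IL1R1 and IL1RAP had log2 fold changes of -0.53 and 0.84 (edgeR adjusted p = 0.150 and 0.0774). The decoy receptor IL1R2 was at -0.87, and the negative regulators SIGIRR and TOLLIP were at 0.32 and 0.18. The adaptor MYD88 was at -0.15, TRAF6 at -0.26, IRAK1 at 0.47 and IRAK4 at 0.17, and none of these passed. The TAK1 kinase gene MAP3K7 and its partners TAB1, TAB2 and TAB3 lay between -0.14 and 0.04. The IKK kinases CHUK and IKBKB were at 0.04 and 0.13, MAP3K8 at -0.14, and the ubiquitin ligases PELI1 and PELI2 at -0.51 and -0.87. In the untreated cells IL1R1 was at 8.11 RPKM (CPM divided by exon length in kilobases) and IL1R2 at 0.338 RPKM, so the level of the signalling receptor stood above that of the decoy.

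About as many genes of the NF-κB list rose as did not pass, among them subunits and inhibitors of NF-κB. All 23 listed were tested, 11 rose and none fell in edgeR's test (47.8% called), with none lower at an unadjusted p under 0.05 either. DESeq2's Wald test called 12 higher and none lower, the median log2 fold change was 1.27, and 8 rose without control replicate 2. Of the inhibitors of the IκB family, 3 of 6 rose. NFKBIA, which encodes IκBα, had 34.5, 39.8 and 31.9 CPM in the controls and 174, 176 and 129.7 CPM with IL-1β, a log2 fold change of 2.17 (SE 0.20, edgeR adjusted p = 1.54e-08). NFKBIZ, an IκB protein of the nucleus, rose by 2.10 (SE 0.25), and NFKBIE rose by 1.45 (SE 0.36), its call lost without control replicate 2 (edgeR adjusted p = 0.112). NFKBIB, NFKBID and BCL3 did not pass, at 0.52, 1.27 and 0.20, and DESeq2's Wald test called NFKBID.

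Of the proteins that edit ubiquitin or otherwise feed back on the pathway, 4 of 7 rose. TNFAIP3, which encodes the enzyme A20, had 7.85, 6.09 and 6.79 CPM in the controls and 127, 132 and 84.9 CPM with IL-1β, a log2 fold change of 4.05 (SE 0.23, edgeR adjusted p = 1.18e-12). ZC3H12A, an RNase that degrades cytokine mRNAs, went from 16.7, 12.6 and 10.99 CPM to 201, 200.4 and 145 CPM, a log2 fold change of 3.76 (SE 0.47). TNIP1, a partner of A20, rose by 2.08 (SE 0.18), and TNIP3 rose by 2.25 with its call lost without control replicate 2 (edgeR adjusted p = 0.140). TNIP2 was at 0.25, and the deubiquitinases CYLD and OTULIN were at 0.34 and -0.00017, none of them past.

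The subunits divided. RELB rose by 2.08 (SE 0.50) and NFKB2 by 1.66 (SE 0.28), the subunits of the alternative pathway, though the call of RELB was lost without control replicate 2 (edgeR adjusted p = 0.0846). NFKB1 passed the first threshold but not a fold change of 2, with a log2 fold change of 0.86 (SE 0.11, edgeR adjusted p = 9.04e-06). RELA and REL were at 0.23 and 0.16 and did not pass, and 33.3% of the exons of REL are shared with a neighbour on its strand. Of the TRAF and IAP proteins, TRAF1 rose by 3.00 (SE 0.51) and BIRC3 by 2.13 (SE 0.35), while BIRC2 and TRAF3, at 0.79 and 0.52, passed only the first threshold and TRAF2, at 0.75, neither. BCL2A1, an antiapoptotic protein of the BCL2 family, went from 0.458, 0.609 and 0.945 CPM to 11.9, 11.3 and 17.6 CPM. With BIRC3 it was 1 of 2 risen among 10 tested antiapoptotic genes (20%, against 1.52% of all genes higher).

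**Figure D4:**
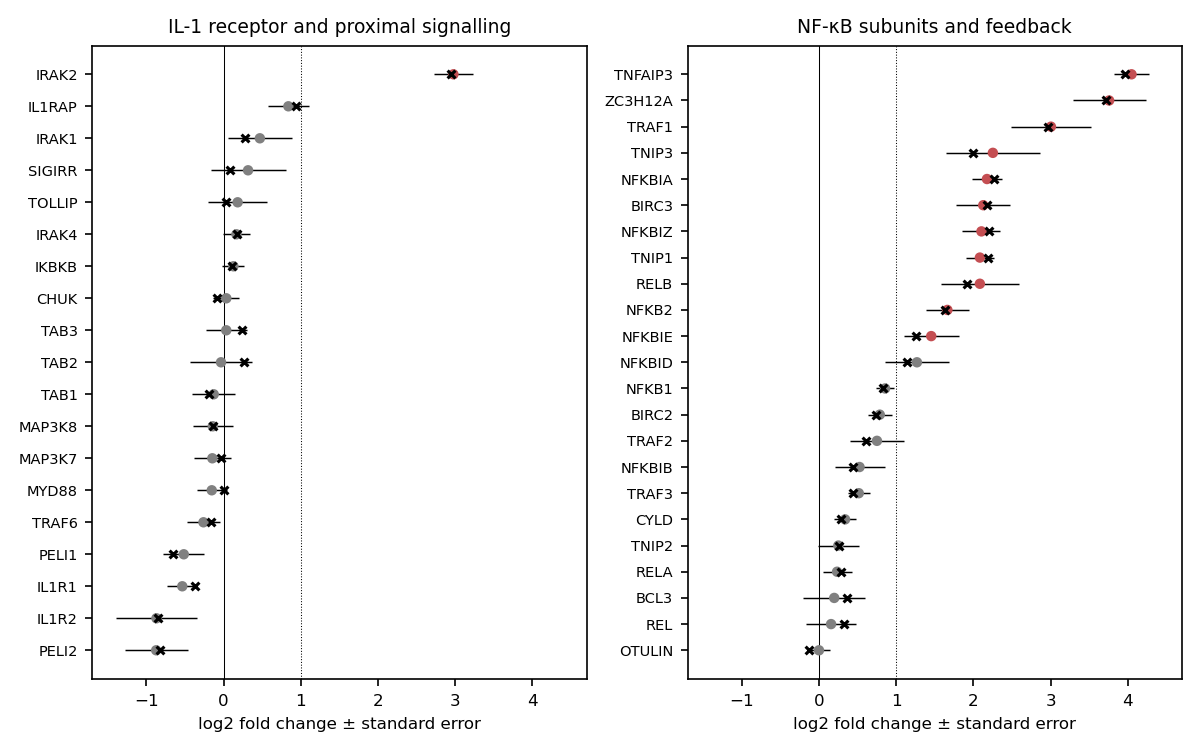
Log2 fold change, IL-1β over control at day 6, of the 19 tested genes of the IL-1 receptor list (left) and the 23 of the NF-κB list (right), with bars of ± 1 standard error, red for genes past both thresholds, grey for the others, and crosses for the value without control replicate 2. IRAK2 alone is past both thresholds on the left, and 11 genes from NFKBIE to TNFAIP3 are on the right.

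MIR3142HG, a long noncoding RNA on chromosome 5 from 159865601 to 159914433 of GRCh37, had 0 counts in all 3 controls and 7.38, 6.58 and 6.87 CPM with IL-1β, at least 32.8-fold higher. It is the host transcript of miR-146a, which is known to act on IRAK1 and TRAF6. The mature strand is shown because it belongs to this transcript, with its seed (bases 2 to 8) in capitals. RefSeq places it at chr5:160485372-160485393 of GRCh38.p14, plus strand.
hsa-miR-146a-5p: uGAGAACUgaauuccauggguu
The mature miRNA itself was not measured in these mRNA libraries.

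The acute phase and complement genes moved both ways. Of 35 listed, 20 were tested, 7 rose and 3 fell (50%), with a median log2 fold change of 0.84, and without control replicate 2 the numbers were 6 and 3. Of 6 tested genes listed here as acute phase proteins, 5 rose. The fibrinogen group was listed with coagulation instead, and all 4 of its tested genes fell. SAA1, serum amyloid A, had 0.0654, 0.174 and 0.0591 CPM in the controls and 17.8, 17.0 and 6.28 CPM with IL-1β, a log2 fold change of 7.09 (SE 0.72), and SAA2 rose by 6.19 (SE 0.63). The copies are nearly identical, so their reads could be split between them, and replicate 3 was the lowest IL-1β library for both. LCN2, lipocalin 2, which binds bacterial siderophores, went from 1.83, 2.09 and 1.24 CPM to 39.0, 36.5 and 16.3 CPM, a log2 fold change of 4.16 (SE 0.52). SERPINA1, α1-antitrypsin, rose by 3.12 (SE 0.54). PTX3 had 1 count in the controls together, and its call was lost without control replicate 2 (edgeR adjusted p = 0.0689).

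Of 11 tested complement genes, 2 rose and 2 fell (36.4% called, against 2.77% of all genes). All 4 except CFI were named after their values were seen. C3, the central complement protein, went from 713, 840.5 and 336 CPM to 2339, 2265 and 1084 CPM, a log2 fold change of 1.59 (SE 0.25). CFB, of the alternative pathway, rose by 2.29 (SE 0.51), and 42.8% of its exons are shared with a neighbour on its strand. CFI, which inactivates C3b, fell by 3.797 (SE 0.66), and C5 fell by 2.75 (SE 0.39), from 84.1, 90.0 and 57.6 CPM to 11.3, 15.1 and 8.09 CPM. DEFB1, an epithelial defensin also named after its value was seen, fell by 2.86 (SE 0.54), with 12.5% of its exons under a gene on the other strand.

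Interferon-stimulated genes rose in part. Of 42 listed, 36 were tested and 3 rose (8.33%, against 1.52% of all genes higher), with a median log2 fold change of 0.22. These 3 were guanylate binding proteins. GBP1, GBP2 and GBP3 rose by 2.53, 2.47 and 1.95 (SE 0.52, 0.52 and 0.40), and none of the 26 antiviral effectors tested passed in edgeR's test, with 2 higher and 4 lower at an unadjusted p under 0.05, whereas DESeq2's Wald test called 1 of them higher and 2 lower. Among 21 tested genes of MHC class I and checkpoint ligands, 2 rose (9.52%, against 1.52% of all genes higher). At an unadjusted p under 0.05 in edgeR's test, 12 were higher and none lower, against 1128 and 1134 of all 19180 genes. These 12 included 6 of 8 tested genes of peptide loading or the immunoproteasome, and the 8 had log2 fold changes from 0.18 to 0.99, none past both thresholds. CD274, which encodes PD-L1, went from 0.327, 0.957 and 0.591 CPM to 2.14, 2.05 and 2.53 CPM, a log2 fold change of 1.87 (SE 0.53, edgeR adjusted p = 0.0357). Its call was lost without any 1 of the day 6 libraries other than control replicate 2, where the highest edgeR adjusted p was 0.214. PDCD1LG2, which encodes PD-L2, had 0 counts in the controls and 0.552, 0.146 and 0.195 CPM with IL-1β, at least 1.41-fold higher, and its call was lost without control replicate 2 (edgeR adjusted p = 0.0763). B2M, the light chain of class I molecules, had a log2 fold change of 0.48 and did not pass (edgeR adjusted p = 0.231).

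Of 8 tested adhesion molecules, 1 rose and 1 fell (25%, against 2.77% of all genes called). CEACAM6, an adhesion protein of the epithelial surface, fell from 12.3, 11.3 and 11.05 CPM to 0.0690, 0.365 and 0.292 CPM, a log2 fold change of -5.52 (SE 0.79, edgeR adjusted p = 2.32e-05). ICAM1, a leukocyte ligand, was low in both groups, at 0, 0.174 and 0.177 CPM and 0.621, 1.17 and 0.536 CPM, and its call was lost without control replicate 2 (edgeR adjusted p = 0.0778). A gene on the other strand overlaps 25.4% of its exons, and the strand setting of the counting is not given in the sources used here. Of 12 tested prostaglandin genes 2 rose (16.7%, against 1.52% of all genes higher). PTGS2 (COX-2) and PTGES (prostaglandin E synthase) rose by 2.61 and 1.04 (SE 0.61 and 0.27). The call of PTGES was lost in 10 of 23 alternative fits, and that of PTGS2 was lost without control replicate 2 (edgeR adjusted p = 0.0613).

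Of 19 tested AP-1 factors, on which MAP kinases act, 3 rose (15.8%, against 1.52% of all genes higher), with and without control replicate 2, and the median log2 fold change was 0.35. FOSL1, which encodes Fra-1, went from 13.1, 20.5 and 23.5 CPM to 80.7, 64.4 and 148 CPM, a log2 fold change of 2.36 (SE 0.55, edgeR adjusted p = 0.00839), and replicate 3 was the highest library in each group. Without control replicate 1 or IL-1β replicate 3 it did not pass (highest edgeR adjusted p = 0.0707). JUN rose by 2.01 (SE 0.32), from 16.7, 14.5 and 14.4 CPM to 67.3, 54.4 and 62.2 CPM, and MAFF by 1.71 (SE 0.32). Among 14 tested MAP kinase phosphatases and Sprouty inhibitors, 1 rose (7.14%, against 1.52% of all genes higher), namely SPRY4 by 1.49 (SE 0.30).

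Epithelial genes fell in part. Of 41 junction genes and epithelial regulators listed, 31 were tested, 4 fell and 1 rose (16.1%), with a median log2 fold change of -0.15, and without control replicate 2 the numbers were 2 and 1. CLDN2, a claudin of leaky tight junctions, had 61.1, 64.8 and 45.7 CPM in the controls and 11.1, 10.3 and 8.04 CPM with IL-1β, a log2 fold change of -2.54 (SE 0.31, edgeR adjusted p = 1.98e-06). CGN, cingulin, fell by 1.22 (SE 0.22). CDH1, which encodes E-cadherin, had 299.8, 319 and 239 CPM in the controls and 154, 162 and 83.3 CPM with IL-1β. Every IL-1β library lay below every control, and the groups likewise did not overlap in 21.8% of all genes tested. The log2 fold change of CDH1 was -1.103 (SE 0.29, edgeR adjusted p = 0.0245), and -1.02 without control replicate 2, where it did not pass (edgeR adjusted p = 0.108). DSP, desmoplakin, fell by 1.07 (SE 0.30), also not past without that library (edgeR adjusted p = 0.195). CLDN1, a barrier-forming claudin, rose from 21.6, 31.1 and 30.5 CPM to 82.6, 79.5 and 94.9 CPM. JUP, γ-catenin, was at 0.14 and did not pass, and its replicate 3 was the lowest library in each group, with 179.9, 169 and 87.9 CPM and 221, 196 and 63.6 CPM.

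Of 11 tested keratins, 3 fell and 4 rose (63.6% called, against 2.77% of all genes). KRT8 and KRT18, the filament pair of simple epithelia, fell by 2.09 and 1.83 (SE 0.31 and 0.34). KRT8 had 4104, 3649.6 and 4235 CPM in the controls and 949.5, 960.2 and 901 CPM with IL-1β, and KRT18 had 2303, 1938 and 2236 CPM and 636, 606 and 575 CPM, with little spread within a group, and 17.1% of the exons of KRT18 lie under a gene on the other strand. KRT4 fell from 60.6, 64.2 and 60.5 CPM to 1.38, 0.877 and 0.633 CPM, a log2 fold change of -6.02 (SE 0.61, edgeR adjusted p = 1.29e-07). KRT7, the other main keratin here, had 1582, 1589.8 and 1503 CPM and 2189, 1973 and 1731 CPM and did not pass (edgeR adjusted p = 0.540). KRT15 rose by 1.14 (SE 0.27), and KRT81, KRT83 and KRT86 by 1.38, 1.40 and 1.07. These 3 hair keratins are close copies whose reads could be split, KRT86 was named after its value was seen, and KRT83 and KRT86 did not pass without control replicate 2.

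Of 14 tested transcription factors of EMT, 1 passed at day 6 (7.14%, against 2.77% of all genes called), and DESeq2's Wald test called 2. The gene that passed was ZEB2, with 4.32, 7.57 and 5.14 CPM in the controls and 15.5, 15.9 and 12.3 CPM with IL-1β, a log2 fold change of 1.36 (SE 0.40, edgeR adjusted p = 0.0458). Without any 1 of the 6 day 6 libraries it did not pass, with edgeR adjusted p from 0.0526 to 0.227. SNAI2, which encodes SLUG, had 1.77, 2.52 and 1.65 CPM and 5.31, 5.85 and 7.21 CPM, and with a log2 fold change of 1.64 it missed the first threshold by little (edgeR adjusted p = 0.0505), whereas DESeq2's Wald test called it. SNAI1 and SNAI3 were at -0.34 and 0.11, ZEB1 at 0.06, TWIST1 and TWIST2 at 0.23 and 0.06, and TCF3 and TCF4 at -0.32 and -0.19. FOXC2, SOX4 and KLF8 were at 1.26, -0.15 and -0.62, none past the first threshold. FOXQ1 and SOX9 were past the first threshold but under a fold change of 2, at 0.68 and -0.90.

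Matrix genes were among the increases. Of 28 tested mesenchymal and matrix genes, 7 rose and none fell in edgeR's or DESeq2's test (25% called), with 1 lower at an unadjusted p under 0.05 in edgeR's. The median log2 fold change was 0.36, and 8 rose without control replicate 2. None of the 6 mesenchymal markers tested passed in edgeR's or DESeq2's test, near the 2.77% of all genes called, and 1 had an unadjusted p under 0.05 in edgeR's. VIM, CDH2 and ACTA2 were at 0.36, 0.36 and -0.35. Genes on the other strand overlap 24.6% of the exons of VIM and 35.9% of those of ACTA2. TNC, tenascin C, had 0.850, 0.696 and 0.650 CPM in the controls and 9.38, 8.92 and 11.3 CPM with IL-1β, a log2 fold change of 3.74 (SE 0.54). LAMB3, a laminin chain of the epithelial basement membrane, rose by 2.73 (SE 0.36). TGFBI, an adhesive matrix protein, went from 1106, 1081 and 898 CPM to 2944, 2920.3 and 2308 CPM, a log2 fold change of 1.41 (SE 0.13, edgeR adjusted p = 1.16e-08). CCN1 and LOXL2 rose by 1.15 and 1.06, and COL1A1 by 1.02, the last not past without control replicate 2 (edgeR adjusted p = 0.176). FN1, fibronectin, was at 0.02, with 303, 303 and 222 CPM and 308, 300.1 and 229 CPM.

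Of 6 tested genes of plasminogen activation, which cuts matrix and fibrin at the cell surface, 4 rose (66.7%, against 1.52% of all genes higher). Of 8 tested metalloproteinases none was called in edgeR's or DESeq2's test, near the 2.77% of all genes called. Their log2 fold changes ran from -0.99 to 1.69, and 3 were higher and 1 lower at an unadjusted p under 0.05 in edgeR's test. PLAU, PLAUR and PLAT, the activators and the receptor of urokinase, rose by 1.29, 1.35 and 1.06 (SE 0.23, 0.21 and 0.20), and a gene on the other strand overlaps 31.0% of the exons of PLAU. Of 18 tested integrins, 2 rose (11.1%, against 1.52% of all genes higher). These were ITGA2 and ITGB3, by 1.14 and 1.41 (SE 0.23 and 0.27), and 33.2% of the exons of ITGB3 are shared with a neighbour on its strand.

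The lower genes included a group of plasma proteins that hepatocytes normally secrete and that A549 cells also expressed. Of 25 listed, 15 were tested, 8 fell and 1 rose (60%), with a median log2 fold change of -2.59, and 7 fell without control replicate 2. All 4 tested genes of the fibrinogen group fell. FGB had 14.1, 16.5 and 12.9 CPM in the controls and 0.621, 0.512 and 0.341 CPM with IL-1β, a log2 fold change of -4.89 (SE 0.54, edgeR adjusted p = 3.88e-07). FGG, FGA and FGL1 fell by 4.57, 2.99 and 3.12 (SE 0.83, 0.44 and 0.48). APOH fell by 3.07 (SE 0.46). F7, coagulation factor VII, had 0.588, 0.957 and 0.295 CPM in the controls and 0 counts with IL-1β, at least 3.22-fold lower, and did not pass without control replicate 2 (edgeR adjusted p = 0.0922). The gene that rose was F3, tissue factor, named after its value was seen, from 1.70, 2.09 and 2.66 CPM to 4.55, 5.26 and 5.70 CPM.

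Among the factors that set endoderm and lung identity, 20 were tested and 4 fell (20%, against 1.25% of all genes lower). All 4 were of the FOXA and HNF group, known as activators of hepatocyte genes. HNF4A had 28.0, 26.5 and 24.8 CPM in the controls and 5.80, 6.14 and 5.60 CPM with IL-1β, a log2 fold change of -2.18 (SE 0.42, edgeR adjusted p = 0.00120). ONECUT1 and FOXA1 fell by 1.89 and 1.00 (SE 0.40 and 0.25). FOXA1 lay just past a fold change of 2, and its call was lost in 19 of 23 alternative fits, DESeq2's Wald test among them, with log2 fold changes from -1.09 to -0.89. FOXA2 was at -0.48 and did not pass (edgeR adjusted p = 0.490). RUNX2 was past the first threshold but under a fold change of 2, at 0.92, and passed both without control replicate 2, at 1.12 (edgeR adjusted p = 0.00214).

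Some metabolic and stress genes passed both thresholds. Of 30 tested NRF2 targets, which answer oxidants, 3 fell (10%, against 1.25% of all genes lower). At an unadjusted p under 0.05 in edgeR's test, 11 of the 30 were lower and none higher, against 1134 and 1128 of all 19180 genes. The median log2 fold change of the 30 was -0.23. GPX2, a glutathione peroxidase of epithelia, had 28.5, 43.5 and 26.9 CPM in the controls and 1.52, 1.83 and 1.70 CPM with IL-1β, a log2 fold change of -4.28 (SE 0.53). AKR1B10 and AKR1C2 fell by 1.23 and 1.07 (SE 0.17 and 0.25), the latter with close copies among its family, while NQO1 was at -0.39 and did not pass. Of 25 tested glycolysis genes 2 fell (8%, against 1.25% of all genes lower) and none rose in edgeR's test. DESeq2's Wald test called 2 lower and 1 higher. The median log2 fold change of the 25 was 0.25, and 6 were higher and 2 lower at an unadjusted p under 0.05 in edgeR's test. SLC2A3, a glucose transporter, fell by 2.51 (SE 0.29) and PDK4 fell by 2.16 (SE 0.55), PDK4 not past without control replicate 2 (edgeR adjusted p = 0.0525). MT2A, a metallothionein and the 1 gene called of 10 tested for oxidative stress and metals (10%), rose by 1.69 (SE 0.33). SOD2, the mitochondrial superoxide dismutase, was not matched by symbol and was not analysed here. Of 27 tested chromatin enzymes 1 fell (3.7%, near the 2.77% of all genes), namely TET1, a methylcytosine dioxygenase, by 1.55 (SE 0.26). HDAC9 was at 1.33 (edgeR adjusted p = 0.0604), EZH2 at -0.47 and DNMT1 at -0.10, none past in edgeR's test. DESeq2's Wald test called 1 of the 11 tested histone deacetylases, the group of HDAC9, higher.

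Cell cycle genes gave no call in edgeR's or DESeq2's test and 1 unadjusted p under 0.05 in edgeR's, with log2 fold changes from -0.94 to 0.32 and a median of -0.18 over 43 tested, and MKI67, a marker of proliferation, was at -0.51 (edgeR adjusted p = 0.810). The 21 tested p53 targets, the 30 of sterol and fatty acid synthesis and the 7 mucins gave none either in both tests, with medians of 0.19, -0.22 and -0.33. At an unadjusted p under 0.05 in edgeR's test, 2 p53 targets were higher and none lower, and 2 mucins were lower and none higher. Of the genes of sterol and fatty acid synthesis, 8 were lower and 1 higher at that level, against 1134 and 1128 of all 19180 genes. With 2.77% of all genes called, counts of 0 calls in lists of these sizes are near the share over all genes.

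**Figure D5:**
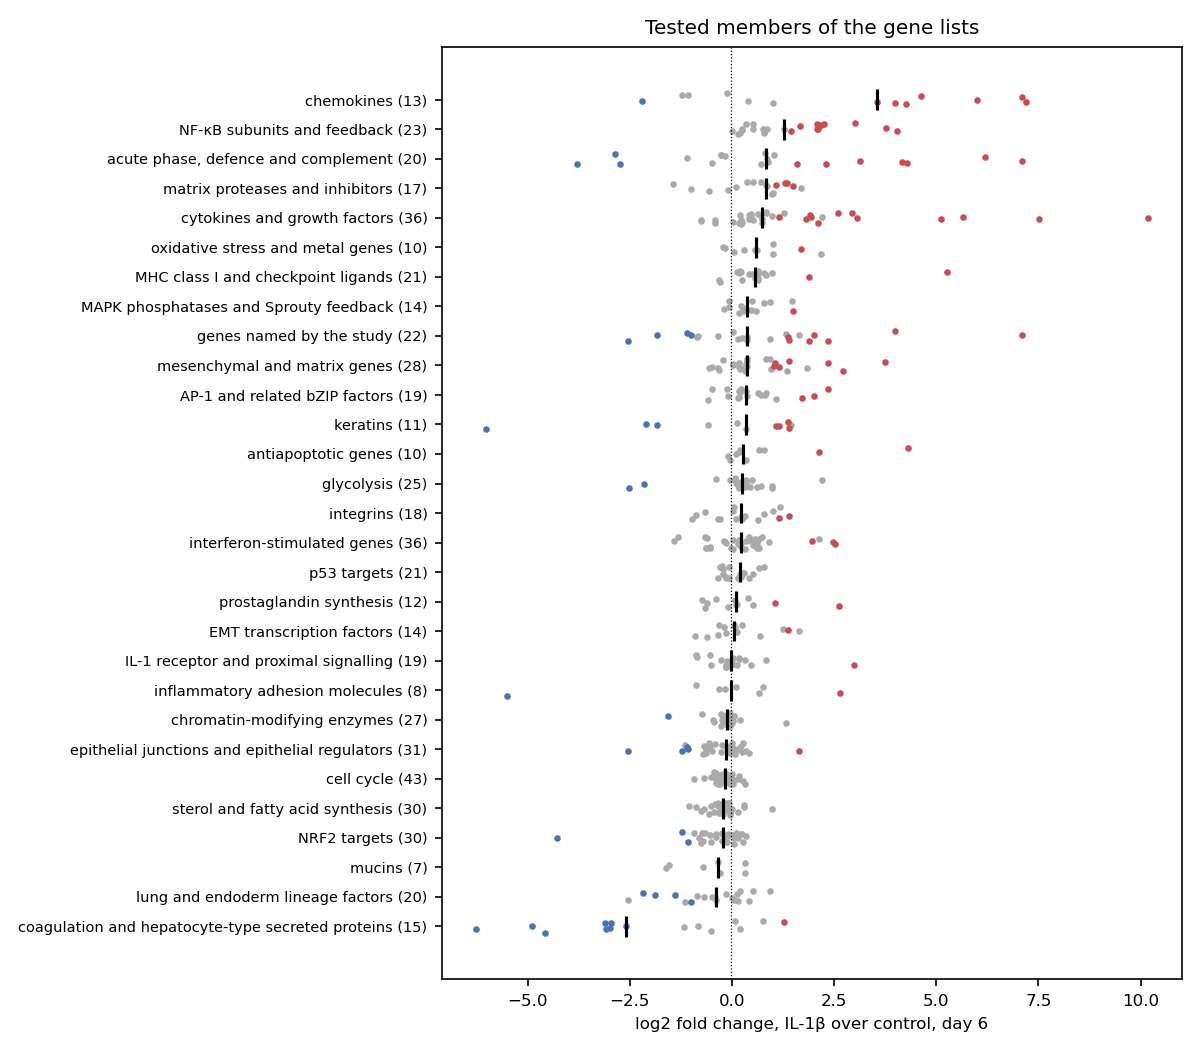
Log2 fold change at day 6 of each tested member of 29 gene lists, 1 row per list with the number tested in brackets, ordered by the list median (black bar). Red points are genes higher and blue points genes lower past both thresholds, grey points are the others, and the dotted line marks the median of all genes tested; the chemokines have the highest median (3.56) and the coagulation list the lowest (-2.59).

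The largest changes outside these lists included C15orf48, which encodes a small mitochondrial protein, with 2.35, 2.87 and 1.42 CPM in the controls and 221, 218 and 84.6 CPM with IL-1β, a log2 fold change of 6.32 (SE 0.50). A neighbour on its strand shares 21.6% of its exons. C6orf58 had 1 count in the controls together, and its ratio of IL-1β over control was 83.5 (exact 95% interval 14.6 to 3332, counting error only). Among the decreases were FXYD2, a regulator of the sodium pump, by 3.59 (SE 0.56), BAAT, which conjugates bile acids, by 3.83 (SE 0.67), and the noncoding LINC02532 by 4.18 (SE 0.43) on the log2 scale. SOX21, a transcription factor, and ENSG00000250376, which has no symbol in the annotation, were within 3 counts over the 3 IL-1β libraries. The ratio of control over IL-1β was 23.4 (exact 95% interval 3.76 to 968, counting error only) for SOX21, which did not pass without control replicate 2 (edgeR adjusted p = 0.161).

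The study itself named the 22 genes of a further list, some from these RNA-seq libraries and others from other assays of A549 cells. Their count is therefore not independent evidence. All 22 were tested, 7 rose and 4 fell, or 7 and 3 without control replicate 2. TGFB1 was at 0.24, MAP4K1 at -0.84 and SMAD6 at -0.85, of which SMAD6 passed only the first threshold.

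The labelled cell type was checked against marker genes. The epithelial markers KRT8, KRT18, KRT7 and CDH1 were at 83.3 CPM or more in every library, while KRT19 had at most 3 counts in each and EPCAM was under 1 CPM. The summed level of the 6 was 7497 to 8290 CPM in the controls and 3291 to 3930 CPM with IL-1β. Of 9 alveolar type II markers 5 were at the floor of 3 counts, among them SFTPC and NKX2-1, and SFTPA1 and SFTPA2 had no counts, so the defining markers of that cell type were absent. Their sum, nearly all ABCA3, lay at 19.1 to 37.3 CPM in the controls and 14.6 to 36.8 CPM with IL-1β. The defining leukocyte markers PTPRC and CD3E were at or near 0, as were LUM and FAP of fibroblasts and CDH5 and KDR of endothelium. The summed leukocyte list lay at 12.6 to 20.2 CPM in the controls and 13.2 to 31.1 CPM with IL-1β, nearly all CD14 and ITGAM, and the fibroblast list at 1.37 to 2.13 and 2.21 to 3.22 CPM, mostly COL1A1. Of 4 endothelial markers matched 3 were at the floor, and their sum lay at 1.04 to 1.37 and 0.877 to 1.17 CPM. The part of such cells in the results was not tested.

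The response at day 6 was compared with that at days 15 and 21 of exposure by a test of the difference between responses. Against day 15, none of the 19180 genes (0%) passed both thresholds in edgeR's quasi-likelihood test, with 508 genes at an unadjusted p under 0.05, and DESeq2's Wald test called 2. Against day 21, 2 genes passed (0.0104%), with 429 at an unadjusted p under 0.05 and 7 called by DESeq2. ABAT, which breaks down the transmitter GABA, rose by 1.82 at day 6 and by 4.67 at day 21, where it had 30.5, 32.9 and 27.3 CPM with IL-1β against 1.31, 1.03 and 1.20 CPM in the controls. The difference of 2.85 (SE 0.41) had an edgeR adjusted p of 0.00312. INHBB, a subunit of activin and inhibin, fell by 3.15 at day 6 and by 4.97 at day 21, from 115.6, 116.9 and 147.6 CPM to 3.801, 3.22 and 4.97 CPM. The difference of -1.82 (SE 0.28) had an edgeR adjusted p of 0.00373. At day 6 INHBB had 163, 168 and 164 CPM in the controls and 19.2, 20.4 and 16.3 CPM with IL-1β, and its control level varied little. Neither difference passed when replicate 1 or replicate 2 of every group was left out.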

How the data were processed

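RNA-seq counts of 36 libraries were used, 6 of them from day 6. The authors prepared the libraries with a stranded mRNA kit, aligned reads to GRCh37 (the submitters' processing notes name TopHat2 2.0.14, Bowtie2 2.2.5 and bcl2fastq 2.17) and counted reads per Ensembl gene with HTSeq 0.6.1. The deposited values are raw counts. The strand setting and annotation release are not given in the sources used here. Reads on no gene (8.48% to 14.8% at day 6) and ambiguous reads (3.14% to 4.16%) were left out.

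Counts were filtered with filterByExpr, which kept 19180 of 39471 genes with any count, and scaled by TMM. EdgeR 4.0.16 (R 4.3.3, limma 3.58.1) fitted 12 group means to all 36 libraries with the quasi-likelihood test and 24 residual degrees of freedom, with Benjamini-Hochberg adjustment over all genes tested. DESeq2 1.42.0, other scalings and filters, a replicate block and leaving out libraries were alternatives. Mitochondrial shares were compared by an exact permutation test. The model was tested on simulated data. Symbols came from GENCODE v44lift37 by identifier (55665 of 63677 genes), and 758 of 764 list entries were matched. Exon overlaps, promoters and miRNA (RefSeq) were read from reference tables. Intervals and bounds cover counting error only.

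The genes and lists were chosen with earlier results of these data known. Named were the 12 largest increases and decreases past both thresholds that moved the same way in all 3 same-numbered pairs, up to 6 called members of each list, every member of 4 lists, other members as examples, and the 5 largest differences between responses each way. Members named after their values were seen are marked as such. A few members of the lists are not reported here by name.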

Additional observations from a re-analysis of the deposited data

Results flagged for a closer look

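The tests of the difference between responses singled out 2 genes whose response at day 21 differed from that at day 6. ABAT had a difference of 2.854 in log2 fold change (SE 0.41, edgeR adjusted p = 0.00312), with 1.82 at day 6, 3.75 at day 15 and 4.67 at day 21. INHBB had a difference of -1.825 (SE 0.28, edgeR adjusted p = 0.00373), with -3.15, -4.59 and -4.97. At day 15 the differences from day 6, 1.93 and -1.45, did not pass (edgeR adjusted p = 0.594 and 0.279).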

How the results depend on the processing

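The day 6 count of 531 was 539 with DESeq2 size factors, 472 with total counts, 493 with no filter, 587 and 622 with DESeq2's Wald and edgeR's likelihood ratio test, and 565 and 680 for the day 6 libraries alone by the quasi-likelihood and exact tests. It was 304 with at least 10 counts in every library, 306 in a test against a fold change of 1.5, and 819 with no fold change minimum; leaving out one replicate or library gave 176 to 448, with the lowest value without replicate 1. An adjusted p under 0.01 gave 375, the high mitochondrial share as a covariate gave 774, and with the replicate block 775. The fits without a single library were added after seeing the data.

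With a replicate block the count was 590 (653 for day 6 alone). Same-numbered samples correlated at 0.192, 0.0900 and 0.375 in their deviations, and IL-1β replicate 2 correlated best with control replicate 1 (0.123), so the numbers were not taken as pairs. The difference in mitochondrial share was -4.84 points as a mean within-pair difference, -3.94 with all reads as denominator, and -6.95 to -0.776 when one replicate was left out.

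Of the difference between responses at days 15 and 6, 0 genes were called; DESeq2's Wald test and edgeR's likelihood ratio test gave 2 each, the replicate block and the covariate with the replicate block 1 each, and leaving out one replicate 0 to 2. Between days 21 and 6, 2 were called; total counts gave 0, at least 10 counts 1, DESeq2's Wald test 7, the test against a fold change of 1.5 gave 1, no libraries of high mitochondrial share 1, and leaving out one replicate 0 to 10 (0 without replicate 1 or 2, 10 without replicate 3). The cause was not tested.

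Of 166 named genes, 105 were called, 50 of them in every one of 23 alternative fits in which they had a value, and none of the called genes changed sign in these fits. The sign changed for 17 of the 61 genes that were not called, 73 times in all, to log2 fold changes between -0.33 and 0.33. With high mitochondrial share as a covariate the log2 fold change was -0.0935 for TOLLIP, 0.0342 for MAP3K7, 0.32 for TAB2, -0.0879 for BCL3, -0.21 for SNAI3, -0.0729 for TWIST2, -0.22 for JUP and 0.00216 for DNMT1. With that covariate and the replicate block it was -0.10 for TOLLIP, 0.0328 for MAP3K7, 0.33 for TAB2, -0.10 for BCL3, -0.25 for SNAI3, -0.0963 for TWIST2, -0.16 for JUP and 0.00805 for DNMT1. Without the libraries of high mitochondrial share it was 0.0295 for MYD88, 0.29 for TAB2, -0.0646 for CHUK, -0.14 for SNAI3 and -0.11 for TWIST2. For TAB2 it was 0.0906 (scaling by totals), 0.00887 (unfiltered), 0.0214 (replicate block) and 0.0364 (day 6 libraries alone with replicate block). For OTULIN it was 0.071 (scaling by totals), 0.038 (unfiltered), 0.00441 (replicate block), 0.0303 (day 6 libraries alone with replicate block), 0.0134 (DESeq2 size factors), 0.00343 (at least 10 counts in every library), 0.0115 (DESeq2 Wald test), 0.0214 (day 6 libraries alone) and 0.0211 (edgeR exact test on the day 6 libraries). Leaving out one replicate or library at a time gave -0.28 to 0.0238 for MYD88, -0.19 to 0.0102 for TAB1, -0.17 to 0.27 for TAB2, -0.076 to 0.25 for TAB3, -0.13 to 0.18 for CHUK, -0.000972 to 0.33 for REL, -0.0208 to 0.37 for BCL3, -0.13 to 0.10 for OTULIN, -0.33 to 0.95 for SNAI3, -0.10 to 0.33 for ZEB1, -0.13 to 0.34 for TWIST2, -0.32 to 0.0418 for SOX4, -0.17 to 0.52 for JUP, -0.12 to 0.14 for FN1 and -0.30 to 0.0317 for DNMT1. Depth limits the genes at or under 3 counts per library, for which bounds or intervals are given.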
